A study of Mus musculus with 8 samples.

Results

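The genes described here are the Nduf genes, which encode the nuclear subunits of mitochondrial complex I and part of its assembly factors. They were chosen by symbol alone, as every row of the authors' comparison table whose gene symbol begins with Nduf, which gave 43 of 14853 genes. Of these, 36 encode subunits and 7 encode assembly factors. RNA was sequenced from undifferentiated spermatogonia, the germ cells of the adult testis among which the germline stem cells are found, sorted as MCAM-high, KIT-negative and tdTomato-positive cells. The compared groups were mice with CreER opposite a loxP-flanked Tert allele (CreER/flox, 4 samples) and mice with CreER opposite a normal allele (CreER/+, 4 samples). All 8 samples came from C57BL/6 mice of 8 to 12 weeks, collected 7 days after tamoxifen. Both groups carried 1 Rosa lsl-tdTomato allele, a red reporter that Cre switches on, and in both CreER occupied the other Tert allele, so the CreER/+ group is not wild type at Tert. Tert encodes the reverse transcriptase of telomerase. The labels do not say whether a sample is 1 animal or a pool, so the spread between samples may be partly technical.

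Complex I is the entry point of the respiratory chain. It oxidises NADH, passes the electrons through a flavin and a row of iron-sulfur clusters to ubiquinone, and pumps protons across the inner mitochondrial membrane. The enzyme is L-shaped, with an N module that binds NADH, a Q module that reduces ubiquinone, and a membrane arm whose proximal and distal parts hold the proton channels. Core subunits carry the reaction, accessory subunits surround and stabilise them, and assembly factors leave the finished enzyme. The core subunits of the membrane arm are encoded by mitochondrial DNA, and those genes were not analysed here. Spermatogonial stem cells are generally described as relying more on glycolysis than later germ cells do.

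All gene values are those of the authors' comparison, given as log2 fold change of CreER/flox over CreER/+ with its standard error (SE), and a positive value means higher in CreER/flox. The direction was read from the name of the table, which calls the groups flox and WT. Tert itself stood at 0.29 (SE 0.26 and adjusted p 0.595 in the authors' deposited table), so it does not check the direction. Values of single libraries were not used here, and the depth behind a gene is given as its mean normalized count over all libraries. A gene was called when its DESeq2 Wald p, adjusted by Benjamini-Hochberg over all 14853 genes, was under 0.05. The SEs of the Nduf genes ran from 0.07 to 0.28 with a median of 0.13, so a call needed an absolute log2 fold change of 0.22 for the best measured gene and 0.84 for the worst measured one.

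No Nduf gene was called in either direction by this DESeq2 test, beside 5.36% of all genes, 1.94% higher and 3.42% lower. Most of the family nevertheless lay slightly on one side. Of the 43 Nduf genes 31 (72.1%) were above 0 in the authors' deposited table, beside 50.1% of all genes, and 12 were below. Their median log2 fold change was 0.12, or 1.08-fold, beside 0.00071 for all genes. At an unadjusted p under 0.05, 11 Nduf genes (25.6%) were higher and 0 were lower in CreER/flox, beside 9.15% of all genes higher and 10.5% lower. These 11 are the genes whose 95% interval lay wholly above 0, and the intervals of the other 32 held 0. The 95% interval, taken as 1.96 SE on each side, lay between -1 and 1 for each of the 43 genes and within 0.25 of 0 for 5 of them. With wider intervals, from a t distribution with 6 degrees of freedom, it lay between -1 and 1 for 40 of the 43.

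**Figure D1:**
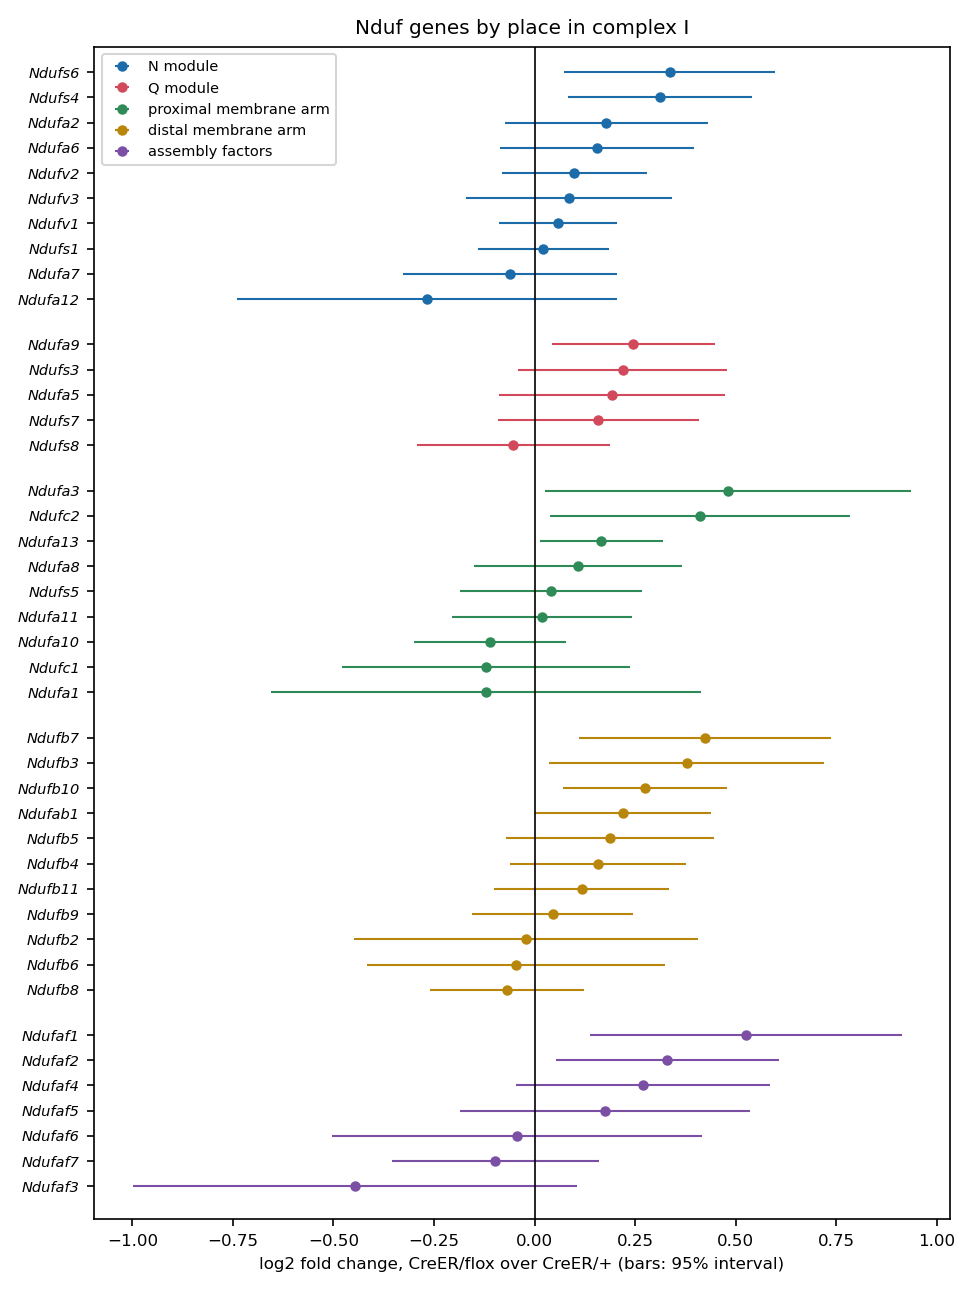
Log2 fold change of CreER/flox over CreER/+ for 42 of the 43 Nduf genes (points), each with its 95% interval (bars), grouped by place in complex I. The points run from -0.45 (Ndufaf3) to 0.53 (Ndufaf1), 30 lie above 0, and 11 intervals lie wholly above 0.

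The genes were moderately abundant. Their mean counts ran from 51.4 (Ndufa1) to 1882 (Ndufv1) with a median of 395.2 in the authors' deposited table, beside a median of 192 for all genes. The side on which a gene lay differed with abundance. Of the 37 Nduf genes that averaged at least 100 counts, 30 were above 0 (81.1%, median 0.16), beside 56.3% of all genes of that abundance (median 0.03). All genes of the table shared this lean. Over all abundances together their share above 0 was 50.1%, so under 100 counts it was lower than that and than the 56.3% above. Of the 6 Nduf genes below 100, only Ndufa3 was above 0 and the median was -0.08. The SEs of these 6 ran from 0.22 to 0.28. Across the 43 genes the log2 fold change had a Pearson r of 0.17 and a Spearman rho of 0.10 with log2 mean count. Genes are not independent replicates, and all these values come from the same libraries.

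**Figure D2:**
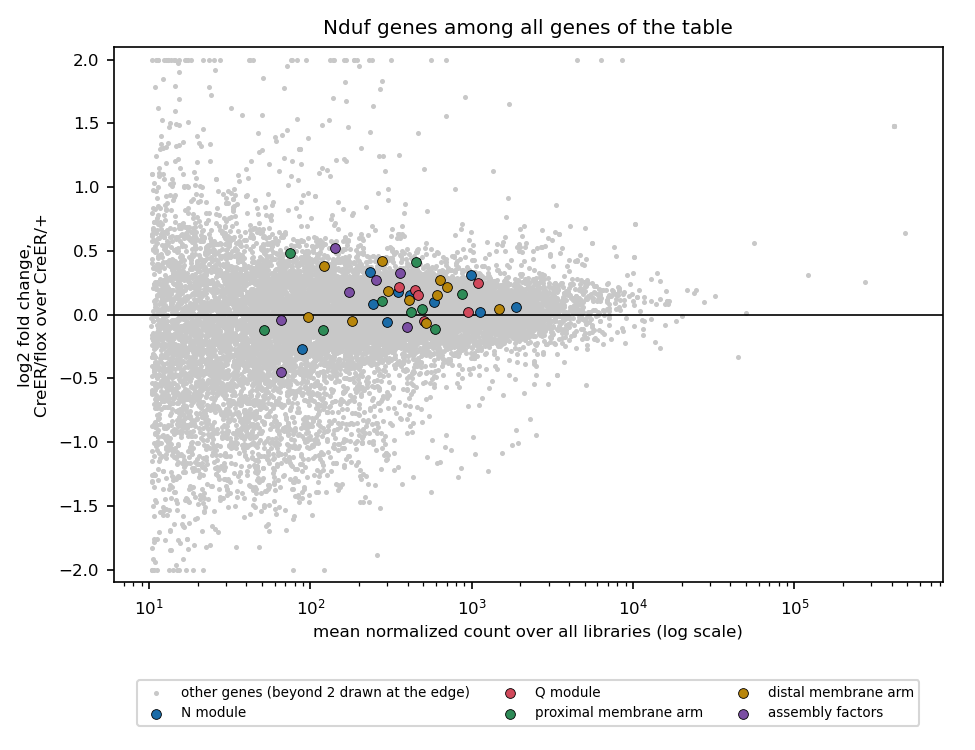
Log2 fold change of CreER/flox over CreER/+ against mean normalized count over all libraries (log axis) for the Nduf genes (coloured by place in complex I) and all other genes (grey, values beyond 2 drawn at the edge). The Nduf genes sit inside the cloud of other genes, with 30 of the 37 at mean counts of at least 100 above 0.

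The smallest p values belonged to genes of the N module and the distal arm and to an assembly factor, 4 in all, each above 0 and none called. Ndufs4 (Entrez gene 17993, chromosome 13, 114287795 to 114388094 in GRCm38, minus strand) encodes an accessory subunit of the N module whose loss causes Leigh syndrome in people and a like disease in mice. It stood at 0.31 (SE 0.12, adjusted p 0.0918), or 1.24-fold, at a mean count of 984.8 in the authors' deposited table. Ndufaf1 (Entrez gene 69702, chromosome 2, 119655446 to 119662839, minus strand) encodes an assembly factor of the membrane arm. Its log2 fold change was 0.53 (SE 0.20, adjusted p 0.0930), or 1.44-fold, at a mean count of 142 in the authors' deposited table, the highest value of the family. Ndufb7 (Entrez gene 66916, chromosome 8, 83566758 to 83571623, plus strand), an accessory subunit on the outer face of the distal arm, had 0.42 (SE 0.16, adjusted p 0.0948) at a mean count of 276.5 in the authors' deposited table. Ndufb10 (Entrez gene 68342, chromosome 17, 24722060 to 24724423, minus strand), also of the distal arm, had 0.27 (SE 0.10, adjusted p 0.0970) at a mean count of 634.6 in the authors' deposited table. These 4 pass if the threshold is set at 0.1, where 3.73% of all genes are called higher. No Nduf gene was called lower there.

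The N module is the tip of the peripheral arm, where NADH is oxidised. Of its 10 measured members 8 were above 0, with a median of 0.09 and a range of -0.27 to 0.34. Its core subunits lay close to 0. Ndufv1, which encodes the subunit with the NADH site and the flavin, had 0.06 (SE 0.07) at the highest mean count of the family in the authors' deposited table. Ndufs1, the large iron-sulfur subunit, had 0.02 (SE 0.08, mean count 1132) there, and the iron-sulfur subunit gene Ndufv2 had 0.10 (SE 0.09) in the authors' deposited table. The 95% intervals of these 3 core genes reached at most 0.28 above and 0.14 below 0. Among the accessory genes, Ndufs6, which encodes a zinc-binding subunit, stood beside Ndufs4 with 0.34 (SE 0.13 and adjusted p 0.117 in the authors' deposited table). Ndufa2 (0.18), Ndufa6 (0.16), Ndufv3 (0.09) and Ndufa7 (-0.06) had, in the authors' deposited table, SEs of 0.12 to 0.14 and adjusted p of 0.472 or more. Ndufa12 was the lowest of the module at -0.27 (SE 0.24, adjusted p 0.594, mean count 88.8) in the authors' deposited table. The assembly factor NDUFAF2 holds the place of NDUFA12 until that subunit joins. Its gene Ndufaf2 stood at 0.33 (SE 0.14, adjusted p 0.154, mean count 360.5) in the authors' deposited table. The 95% intervals of the pair overlapped (0.05 to 0.61 for Ndufaf2 and -0.74 to 0.21 for Ndufa12).

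The Q module carries the last iron-sulfur clusters and the ubiquinone site. Of its 6 members 5 were above 0, with a median of 0.18, the highest median of the 4 subunit groups, and a range of -0.05 to 0.25. Ndufa9, an accessory subunit at the junction with the membrane arm, had 0.25 (SE 0.10, adjusted p 0.141, mean count 1099) in the authors' deposited table. The core genes Ndufs3 (0.22, SE 0.13) and Ndufs7 (0.16, SE 0.13) lay above 0 with intervals that held 0 in the authors' deposited table. The core gene Ndufs8 was near 0 in the authors' deposited table (-0.05, SE 0.12). Ndufa5, an accessory gene, had 0.19 (SE 0.14) there. Taking the 7 nuclear core subunits of both modules, 6 were above 0 with a median of 0.06, and 0 had an unadjusted p under 0.05. Of the 29 accessory subunits 21 were above 0 with a median of 0.16, and 9 had an unadjusted p under 0.05, all higher. Whether core and accessory genes differ was not tested.

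The proximal membrane arm joins the Q module to the distal arm and holds part of the proton channels. It had the lowest median of the subunit groups, 0.04, with 6 of 9 members above 0. It also held a pair of the highest values. Ndufa3 had 0.48 (SE 0.23, adjusted p 0.218) at a mean count of only 74.8 in the authors' deposited table. Ndufc2 had 0.41 (SE 0.19, adjusted p 0.193) there at a mean count of 453, with an SE 1.65 times the median SE of genes of like mean count, the largest such ratio in the family. Ndufa13, also known as GRIM-19 from its study in cell death, was measured more closely, at 0.17 (SE 0.08, adjusted p 0.206, mean count 867.2) in the authors' deposited table. The remaining members, Ndufa8 (0.11), Ndufs5 (0.04), Ndufa11 (0.02), Ndufa10 (-0.11), Ndufc1 (-0.12) and Ndufa1 (-0.12), had, in the authors' deposited table, adjusted p of 0.580 or more. The X chromosome holds Ndufa1 and Ndufb11, and neither had an unadjusted p under 0.05. Ndufa1 had the lowest mean count of the family (51.4) and an SE of 0.27 in the authors' deposited table.

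The distal membrane arm is the far end of the proton-pumping part. Of its 11 measured members 8 were above 0, with a median of 0.16 and a range of -0.07 to 0.42. Besides Ndufb7 and Ndufb10, Ndufb3 had an interval above 0, at 0.38 (SE 0.17, adjusted p 0.193, mean count 121.1) in the authors' deposited table. Ndufab1 encodes the mitochondrial acyl carrier protein, which also serves fatty acid synthesis in mitochondria. It had 0.22 (SE 0.11, adjusted p 0.254, mean count 698.9) in the authors' deposited table, and its 95% interval touched 0. Ndufb5 (0.19), Ndufb4 (0.16), Ndufb11 (0.12), Ndufb9 (0.04), Ndufb2 (-0.02), Ndufb6 (-0.05) and Ndufb8 (-0.07) had, in the authors' deposited table, adjusted p of 0.454 or more. Ndufb9, the second most abundant gene of the family at a mean count of 1466, had an SE of 0.10 in the authors' deposited table, 1.27 times the median of genes of like mean count.

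The assembly factors spread furthest. They included both the highest and the lowest value of the family, with 4 of 7 above 0, a median of 0.18 and a range of -0.45 to 0.53. NDUFAF1 works with ECSIT, ACAD9 and TMEM126B on the part of the membrane arm around the mitochondrially encoded ND2. In the authors' deposited table the partner genes had 0.64 (SE 0.33, Tmem126b), 0.17 (SE 0.13, Acad9) and -0.04 (SE 0.14, Ecsit). NDUFAF3 and NDUFAF4 bind each other and act on the Q module. Ndufaf3 (Entrez gene 66706, chromosome 9, 108565587 to 108567436, minus strand) had -0.45 (SE 0.28, adjusted p 0.387, mean count 65.5), the lowest value of the family, in the authors' deposited table. Ndufaf4 had 0.27 (SE 0.16, adjusted p 0.350, mean count 255.6) there. The 95% intervals of both genes held 0. Ndufaf5, whose product modifies NDUFS7, had 0.18 (SE 0.18), and Ndufaf7, whose product is a methyltransferase, had -0.10 (SE 0.13) in the authors' deposited table. Ndufaf6 had -0.04 (SE 0.23) at a mean count of 66.1 there.

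The symbol rule left out 3 rows that carry no symbol in the table but whose gene ID is an Nduf gene in RefSeq. Ndufa4 is named as a complex I gene although its product is now counted with cytochrome c oxidase. It had 0.45 (SE 0.18, adjusted p 0.108, mean count 164.6) in the authors' deposited table. The assembly factor gene Ndufaf8 had 0.09 (SE 0.17, mean count 153.8) there. Ndufs5-ps, a transcribed pseudogene of Ndufs5, had 0.02 (SE 0.10) at a mean count of 566.9 in the authors' deposited table. That is close to the 490.9 of Ndufs5 itself, so how reads were divided between the copies is uncertain. With these rows included, 34 of 46 were above 0, the median was 0.11 and 0 were called.

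Reads of neighbouring genes could reach some members. The strand setting of the authors' counting was not stated in any source used here, and no such setting separates genes that overlap on the same strand. In GENCODE M21, 21 of the 43 genes overlap another annotated gene, 17 of them a gene on the opposite strand and 6 of them a gene on the same strand. These 21 had a median of 0.12 with 16 above 0, and the 22 without an overlap had a median of 0.13 with 15 above 0. Among the genes of smallest p, Ndufs4, Ndufaf1, Ndufb7 and Ndufb10 overlap no annotated gene. Ndufs6 (0.34) shares 30 bases with the mitochondrial ribosomal protein gene Mrpl36 on the opposite strand, which had 0.38 in the authors' deposited table. Ndufaf2 (0.33) shares 4727 bases with Smim15 on the opposite strand, which had 0.29 there. Ndufaf3 (-0.45) shares 48 bases with Impdh2 on the opposite strand, which had 0.12 there. Ndufa13 shares 375 bases with the spermatid kinase gene Tssk6 on the opposite strand, which had -0.70 in the authors' deposited table while Ndufa13 lay above 0. On the same strand Ndufa13 shares 8379 bases with Yjefn3, which has no value in that table. Ndufb8, Ndufb2 and Ndufb9 likewise share 4260, 4022 and 3604 bases with same-strand protein-coding genes that have no value there. Whether members follow their overlapping partners was not tested.

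Many housekeeping genes start beside a gene that runs the other way. For 11 Nduf genes a protein-coding partner on the opposite strand started within 1000 bases upstream of the gene's own start. None of the 11 partners was called. The Nduf genes of these pairs had a median of 0.11 with 8 above 0, and the partners a median of -0.01 with 4 above 0. The sign was the same within 3 of the 11 pairs. Ndufb3 (0.38) starts 61 bases from Fam126b, which had -0.05 (SE 0.15, mean count 331.1) in the authors' deposited table. Ndufaf2 (0.33) starts 108 bases from the repair gene Ercc8, which had 0.02 (SE 0.13) there. Ndufa7 (-0.06) starts 10 bases from the ribosomal protein gene Rps28, which had -0.01 (SE 0.08) in the authors' deposited table. Whether members and partners differ was not tested.

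Other genes of the respiratory chain were read beside the family from lists written with earlier results of these data known. Complex I assembly factors without an Nduf name had 11 of 13 members above 0 and a median of 0.14, with 0 called. Of them Timmdc1, a partner of the membrane arm, had the smallest p (0.27, SE 0.10 and adjusted p 0.112 in the authors' deposited table). For complexes II to V together, 65 of 79 genes were above 0 with a median of 0.13, and 3 (3.80%) were called, all higher, beside 1.94% of all genes. The called genes in the authors' deposited table were the ATP synthase genes Atp5md (0.50, SE 0.13, adjusted p 0.00625) and Atp5h (0.32, SE 0.10, adjusted p 0.0342), and Cox17, a copper chaperone of cytochrome c oxidase (0.41, SE 0.11, adjusted p 0.0144). After removal of a trend on GC content, mean count and transcript length, described with transcript length, none of these 3 was called (adjusted p 0.0811 for Atp5md, 0.481 for Atp5h and 0.0520 for Cox17), 51 of the 79 genes were above 0 and the median was 0.06. By complex, the deposited medians were 0.15 for complex II (8 of 8 above 0), 0.07 for complex III (11 of 15), 0.15 for complex IV subunits (12 of 15), 0.14 for complex IV assembly (16 of 20) and 0.13 for ATP synthase (18 of 21). The complex I median of 0.12 lay within this range. Genes without a call that had the smallest p of their list in the authors' deposited table were Sdhc of complex II (0.23, SE 0.10, adjusted p 0.193), Uqcrfs1 of complex III (0.34, SE 0.12, adjusted p 0.0611) and Cox7c of complex IV (0.34, SE 0.12, adjusted p 0.0708). For cytochrome c, the somatic gene Cycs had 0.20 (SE 0.12) and the testis form Cyct had -0.20 (SE 0.17) in the authors' deposited table.

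**Figure D3:**
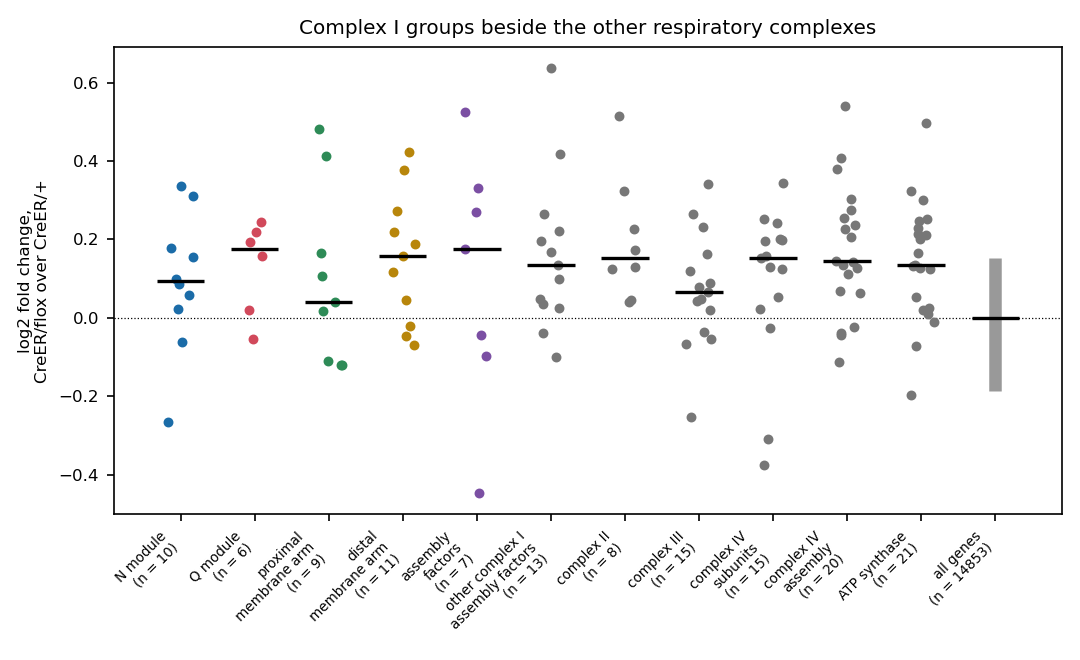
Log2 fold change of CreER/flox over CreER/+ for each gene (points) of the 5 complex I groups (coloured), of other complex I assembly factors and of complexes II to V (grey), with the median of each group (black line). For all genes the grey bar spans the middle quartiles (-0.19 to 0.15). The medians of the complex I groups lie between 0.04 and 0.18 and those of the other lists between 0.07 and 0.15.

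Regulators of mitochondrial gene expression were listed as well. Polg, which encodes the polymerase that copies mitochondrial DNA, was the 1 gene called of 16 (also with the trend removed), higher at 0.35 (SE 0.09, adjusted p 0.00857, mean count 882.6) in the authors' deposited table. That is 6.25% of the list, beside 1.94% of all genes called higher and 5.36% called in either direction. Of the GABP transcription factor, which binds many promoters of respiratory genes, the subunit gene Gabpb1 had 0.36 (SE 0.15, adjusted p 0.119) and the DNA-binding subunit gene Gabpa had 0.09 (SE 0.09) in the authors' deposited table. Nrf1 (-0.05, SE 0.10), Yy1 (0.09, SE 0.11) and the mitochondrial transcription factor gene Tfam (0.02, SE 0.10) were near 0 there. The list had 9 of 16 above 0 and a median of 0.03.

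The Nduf transcripts are short. The longest protein-coding GENCODE transcript of these genes had a median length of 1046 bases, beside 3105 for protein-coding genes of the table, and 36 of 43 were under 2 kb. Among other protein-coding genes the share above 0 declined with length, at 55.4% under 1 kb (median 0.05), 54.8% from 1 to 2 kb, 53.3% from 2 to 4 kb and 43.1% over 4 kb (median -0.03). Within the shortest class, 17 of 20 Nduf genes were above 0 with a median of 0.16, and from 1 to 2 kb 11 of 16 were above 0 with a median of 0.09. Of the 6 genes from 2 to 4 kb 3 were above 0, and Ndufb2, the single longer one, was not. When a trend on GC content, mean count and transcript length, fitted to the log2 fold changes of 13694 protein-coding genes, was removed, 26 of the 43 Nduf genes (60.5%) were above 0 and the median was 0.04. Beside this, 52.2% of the protein-coding genes were above 0 and their median was 0.01. Of the family 3 genes (6.98%), all higher, then had an unadjusted p under 0.05, where 11 had one before, beside 5.28% of the protein-coding genes higher and 14.1% in either direction. By place, the trend-removed medians were 0.03 for the N module, 0.09 for the Q module, -0.04 for the proximal arm, 0.06 for the distal arm and 0.08 for the assembly factors. The 4 genes of smallest p had trend-removed values of 0.15 (Ndufs4), 0.46 (Ndufaf1), 0.36 (Ndufb7) and 0.18 (Ndufb10), all smaller than the deposited ones. The part of transcript length in the deposited values beyond this was not tested.

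**Figure D4:**
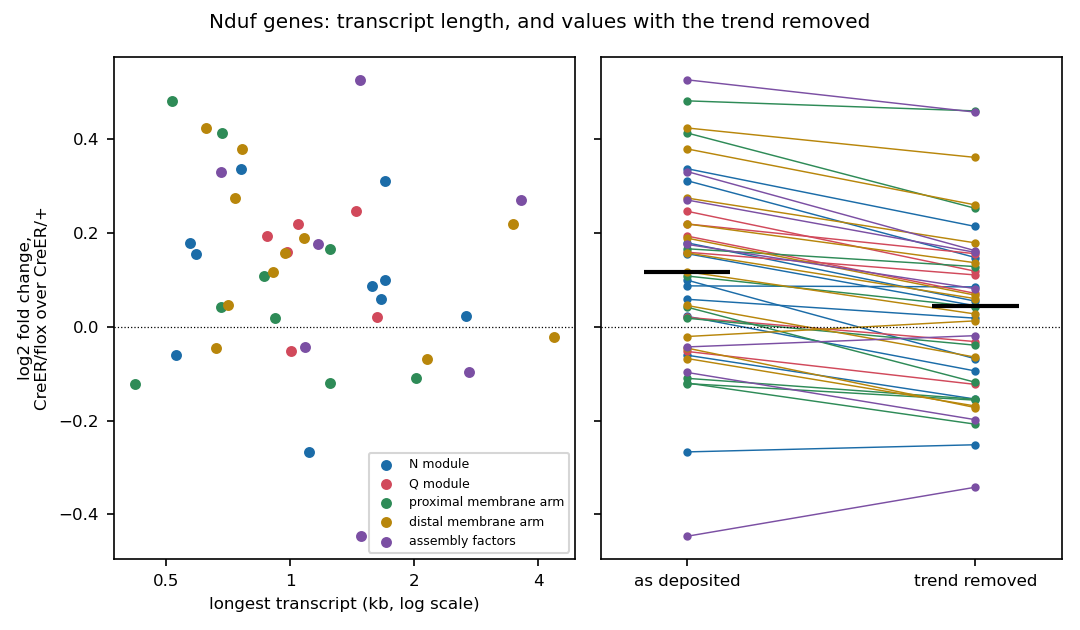
Left, log2 fold change of CreER/flox over CreER/+ against the longest protein-coding transcript (kb, log axis) of the 43 Nduf genes. Right, the same genes as deposited and with the trend on GC content, mean count and length removed (lines join a gene, black bars are medians), where the median is 0.12 as deposited and 0.04 with the trend removed.

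Per kb of that transcript, the mean normalized count ran from 22 per kb for Ndufb2, whose longest transcript of 4371 bases lowers its figure, to 2082 per kb for Ndufb9. Ndufv1 followed with 1133 per kb, then Ndufb10 with 867 and Ndufa9 with 760.2. The assembly factors ran from 44.1 per kb for Ndufaf3 to 531.8 for Ndufaf2, inside the range of the subunits. These are levels over all libraries and not differences between the groups.

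Promoter sequence was examined because the family lay mostly on one side of 0. RefSeq promoter windows of GRCm38.p6, from 250 bases before the start to 50 after it, were matched for 38 of the 43 genes. The windows were searched on both strands for exact matches of the motifs of NRF1, YY1, ETS factors such as GABP, Sp1 and the oestrogen-related receptors. The NRF1 core CGCATGCG was in 4 of 38 windows (10.5%), beside 1.91% of all 27025 promoters and 3.84% of those of genes in the table. The YY1 motif AAGATGGCG was in 5 of 38 (13.2%), beside 1.49% of all promoters and 2.93% of those in the table. The ETS core CCGGAAG was in 5 of 38 (13.2%), beside 9.12% of all promoters and 17.2% of those in the table. The GC box GGGGCGGGG was in 6 (15.8%), beside 11.6% of all promoters and 20.9% of those in the table. The receptor motif TCAAGGTCA was in 0, beside 0.407% of all promoters. The motifs share no site in these windows. A match describes letters and not binding.

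The NRF1 and YY1 matches are shown as stretches of 30 bases on the strand of the gene, 5′ to 3′, with the motif in capitals, because these motifs were present at a higher share in the family than among the promoters of all genes in the table, a difference that was not tested.
Ndufa11 (NRF1, chr17:56717692-56717721, plus strand): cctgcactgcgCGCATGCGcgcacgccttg
Ndufa8 (NRF1, chr2:36049329-36049358, minus strand): gtcgctggagaCGCATGCGcagatggtacc
Ndufaf4 (NRF1, chr4:24897960-24897989, plus strand): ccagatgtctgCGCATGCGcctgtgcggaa
Ndufaf5 (NRF1, chr2:140170652-140170681, plus strand): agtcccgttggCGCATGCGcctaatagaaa
Ndufa9 (YY1, chr6:126849096-126849125, minus strand): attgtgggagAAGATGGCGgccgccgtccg
Ndufc1 (YY1, chr3:51408914-51408943, minus strand): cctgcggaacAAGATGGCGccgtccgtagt
Ndufs4 (YY1, chr13:114388045-114388074, minus strand): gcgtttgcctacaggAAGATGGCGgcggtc
Ndufs6 (YY1, chr13:73328433-73328462, minus strand): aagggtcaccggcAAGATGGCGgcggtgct
Ndufs7 (YY1, chr10:80249463-80249492, plus strand): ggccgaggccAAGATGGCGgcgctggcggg
All 5 YY1 matches lay on the strand of the gene, with their first base 23 to 36 bases into the transcript. The YY1 motif holds the letters ATG of a start codon. Whether these matches are the start codons of the genes, and whether that raises their share, was not tested. The NRF1 motif reads the same on both strands. Its first base lay 112 bases before the start of Ndufaf4, 59 before that of Ndufa11, 9 before that of Ndufa8 and 18 bases into the transcript of Ndufaf5. Genes with the YY1 motif had a median log2 fold change of 0.25 with 4 of 5 above 0, and those without it a median of 0.12. Genes with the NRF1 core had a median of 0.14 with 4 of 4 above 0, and those without it a median of 0.16.

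The 250 bases before the start are printed for the 4 genes of smallest p and for Ndufaf3, the lowest gene, in GRCm38.p6 on the strand of the gene, 5′ to 3′, with matches of the searched motifs in capitals.
Ndufs4 (chr13:114388095-114388344, minus strand): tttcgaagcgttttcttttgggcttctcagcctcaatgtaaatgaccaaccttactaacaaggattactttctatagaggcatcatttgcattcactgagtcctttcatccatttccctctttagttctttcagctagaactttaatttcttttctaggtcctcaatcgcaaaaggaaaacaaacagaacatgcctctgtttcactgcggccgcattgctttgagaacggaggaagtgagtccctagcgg
Ndufaf1 (chr2:119662835-119663084, minus strand): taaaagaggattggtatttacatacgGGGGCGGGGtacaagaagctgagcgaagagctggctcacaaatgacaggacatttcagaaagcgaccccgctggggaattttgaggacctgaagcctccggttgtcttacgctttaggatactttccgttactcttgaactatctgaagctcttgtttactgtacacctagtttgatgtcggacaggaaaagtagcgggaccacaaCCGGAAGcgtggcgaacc
Ndufb7 (chr8:83566508-83566757, plus strand): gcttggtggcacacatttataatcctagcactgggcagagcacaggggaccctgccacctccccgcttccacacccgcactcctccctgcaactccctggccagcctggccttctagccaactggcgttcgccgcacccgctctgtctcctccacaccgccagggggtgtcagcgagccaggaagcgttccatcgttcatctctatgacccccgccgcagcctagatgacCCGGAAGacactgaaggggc
Ndufb10 (chr17:24724424-24724673, minus strand): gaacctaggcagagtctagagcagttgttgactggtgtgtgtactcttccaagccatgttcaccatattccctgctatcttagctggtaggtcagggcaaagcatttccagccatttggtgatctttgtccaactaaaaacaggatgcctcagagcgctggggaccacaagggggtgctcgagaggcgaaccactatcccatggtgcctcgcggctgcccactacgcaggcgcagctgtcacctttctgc
Ndufaf3 (chr9:108567437-108567686, minus strand): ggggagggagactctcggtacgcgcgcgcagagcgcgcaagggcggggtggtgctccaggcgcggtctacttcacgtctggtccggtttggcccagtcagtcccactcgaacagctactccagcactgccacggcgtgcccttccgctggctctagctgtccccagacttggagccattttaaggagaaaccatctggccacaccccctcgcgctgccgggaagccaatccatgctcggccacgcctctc
The capitals in the Ndufaf1 stretch are a GC box and an ETS core, and those in the Ndufb7 stretch an ETS core. The ETS cores began 18 bases before the start of Ndufaf1 and 20 before that of Ndufb7. None of the searched motifs was in the stretches of Ndufs4, Ndufb10 and Ndufaf3. GC content of the printed stretches ran from 42% for Ndufs4 to 65.6% for Ndufaf3.

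The sorted cells were checked against marker lists. The 15 markers of undifferentiated spermatogonia had a median mean count of 684.2 in the authors' deposited table, from 14.9 (Utf1) to 5143 (Zbtb16). Mcam stood at 4854, but the cells were sorted as MCAM-high, so its level is no independent check. Of the 15 markers 0 were called. At an unadjusted p under 0.05, Ret (-0.23, SE 0.08) and Zbtb16 (-0.18, SE 0.07) were lower in CreER/flox. Pax7 (0.73, SE 0.36) was higher. These are 13.3% of the list lower and 6.67% higher, near the 10.5% and 9.15% of all genes. Of 7 markers of differentiating spermatogonia 0 were called. At the same unadjusted threshold Dmrtb1 (-0.91, SE 0.37) was lower, and Sohlh2 (0.23, SE 0.10) and Stra8 (0.30, SE 0.15) were higher. That is 14.3% of these 7 lower and 28.6% higher, beside 10.5% and 9.15% of all genes. All 24 spermatid markers were below 0 with a median of -0.99, while the Nduf genes had a median of 0.12. Of these markers 8 were called, all lower (7 with the trend removed), beside 3.42% of all genes called lower. The SEs of these 24 markers were large, at a median of 1.58 times the median SE of genes of like mean count and 5.37 times for Prm1. Fewer cells of a type and less RNA per cell cannot be told apart in such samples. Among the somatic lists, 1 of 7 measured Sertoli markers (Trf) was called higher, beside 1.94% of all genes. The Sertoli list was split, with 4 markers above 0 and 3 below. Of 3 myoid markers 1 (Actg2) was called lower, beside 3.42% of all genes, and Actg2 was not called with the trend removed. The 6 endothelial, 2 leukocyte, 5 erythroid and 1 Leydig markers measured held 0 calls. The part of these cells in the values of the Nduf genes was not tested.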

How the data were processed

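Total RNA libraries of 8 samples (stranded low-input kit, per the labels' protocols) were compared by the authors in a single deposited table. The submitters' processing notes name DESeq2, Bowtie, Bowtie2 2.0.0-6, TopHat2 2.0.4 and Trim Galore, with builds mm10 and GRCm38. No source used here states the counting program, its strand setting or the annotation. Per the file headers, the deposited base mean is the signal of normalized counts averaged across the libraries, called mean count here. The fold changes and SEs deposited by the authors are log2 values. The score deposited with them is a Wald statistic, equal to log2 fold change over SE to within 2.58e-07. The p-values and adjusted p-values are those deposited by the authors, and calls used an adjusted p under 0.05. No model was fitted across libraries, and p-values measure only the spread between these samples.

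Rows were matched by Entrez ID to RefSeq GRCm38.p6 (14828 of 14853), and lengths came from GENCODE M21. Gene intervals are log2 fold change plus and minus 1.96 SE. The Nduf genes, the other lists and the tests were chosen with earlier results of these data known. Of the 43 Nduf genes 42 are named, and 1 is not reported here by itself but is counted in the totals. Of other lists the called genes, or the gene of smallest p, are named, besides partners, regulators and markers mentioned for their role. Spermatogonial markers with an unadjusted p under 0.05 are named as well. The calling and trend steps were tried on simulated data whose noise equalled the deposited SEs. The central statistics of the real data are 1.45 times as wide as such noise gives, so that trial does not show how calls behave here. Scripts used matplotlib 3.10.9, scipy 1.17.1, numpy 2.4.6 and pandas 2.3.3 under Python 3.11.15.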

Additional observations from a re-analysis of the deposited data

How the results depend on the processing

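No Nduf gene was called by the deposited DESeq2 test, with 11 at an unadjusted p under 0.05. With a threshold of 0.1 the count of called genes was 4, all higher. It was 0 with a threshold of 0.01, with a minimum absolute log2 fold change of 0.25, with identical rows counted once, with adjustment limited to mean counts of at least 100, with either centring, with the trend removed and with the 3 rows without a symbol added. A t distribution of 6 degrees of freedom calls 0 of all 14853 genes, so its 0 calls say nothing about the Nduf genes. At an unadjusted p under 0.05 it left 5 of 43, beside 11.1% of all genes. With the width of the central statistics (1.45 times that of a standard normal distribution) divided out 5 genes of the whole table were called, none of them Nduf, and 0 Nduf genes had an unadjusted p under 0.05, beside 6.64% of all genes. The number of genes above 0 ran from 26 of 43, with the trend removed or with centring on genes averaging at least 1000 counts, to 34 of 46 with the added rows. The median ran from 0.04 with the trend removed to 0.16 over the 37 genes averaging at least 100 counts, and was 0.07 with that centring. The trend changed the sign of 7 single genes and the centring that of 5, none of them called. The deposited fold changes alone allow no leaving out of a replicate. No paired analysis was possible because values of single libraries were not used here. SEs limit the calls, since the median Nduf gene needed an absolute log2 fold change of 0.39.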
